A study of Mus musculus with 18 samples.

Results

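The LPS response of fraction-treated cells was read from 6 of the 18 arrays of the series, 3 of cells given a Hypericum perforatum (St John's wort) sub-fraction and 3 of cells given the same sub-fraction together with lipopolysaccharide (LPS). Arrays were assigned by their titles, with no use of measured values. The cells were RAW264.7, an established mouse macrophage line. The sub-fraction was used at 10 ug/mL and LPS at 10 ug/mL, both for 8 h, and the treatments were applied in the dark with a 30 min period of ambient light. Both groups therefore carried the plant material, and they differed in LPS. For comparison, the series held 3 arrays each of cells given solvent (0.1% DMSO, called vehicle below), vehicle plus LPS, a mixture of 4 plant compounds (amentoflavone, quercetin, chlorogenic acid and pseudohypericin), and that mixture plus LPS. The labels do not name the constituents of the sub-fraction. Whether replicates were independent cultures is also not given, and the p-values cover only the variation among these arrays, part or all of which may be technical. Probe sets reaching the array median on at least 3 arrays were kept, and the brightest probe set of each of 11547 genes was tested. A change is given as the log2 difference of group means ± standard error. A signal is the scaled linear intensity of each array, in the order of replicates 1, 2 and 3. A gene passed with a Benjamini-Hochberg adjusted p under 0.05 by limma.

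LPS is a component of the outer membrane of Gram-negative bacteria that binds CD14 and MD-2 and activates Toll-like receptor 4 on macrophages. The adaptor MyD88 leads from the receptor to NF-kB, AP-1 and the MAP kinases, which induce cytokine and chemokine genes, whereas the adaptor TRIF leads to IRF3 and to interferon beta. Secreted interferon beta then acts back on the cells through its receptor and induces a large set of antiviral genes, while SOCS proteins, dual-specificity phosphatases and RNA-decay factors limit the response.

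The 6 arrays were alike in scale. Array medians lay between 58.0 and 66.8 and the highest signals between 29842 and 39450, and correlations between arrays of one group were 0.974 to 0.979 for the fraction and 0.976 for fraction plus LPS. Of 26 macrophage markers 25 were on the array, with summed signals of 123389 to 135952 in the fraction group and 131444 to 142738 in fraction plus LPS. In each of these groups 19 of them lay above the median on all arrays and 5 under it, and the high markers included Spi1 and Adgre1, which encode a macrophage transcription factor and the F4/80 antigen. Of 28 markers of other cell types 26 were on the array, and 0 were above the median on all arrays in either group. Their summed signals were 513 to 668 without and 768 to 922 with LPS, and their part in the results was not tested. In bulk RNA, fewer cells expressing a gene and less RNA per cell cannot be told apart.

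With LPS, fraction-treated cells had far higher signals of the growth factor genes Csf2 and Csf3, the cytokine genes Il6, Lif, Il1b and Il1a, and the chemokine gene Ccl5. Csf2, which encodes granulocyte-macrophage colony-stimulating factor, read 9.92, 15.7 and 12.8 on the fraction arrays and 7722, 6659 and 6381 with LPS. This was a rise of 9.10 ± 0.51 (adjusted p = 9.6e-11, n = 3 per group) and, since the fraction arrays lay under the array median, is given as at least 114-fold. The 2 groups did not overlap, and the same held for each gene described below as rising or falling with LPS in fraction-treated cells, which for the 15 largest rises and 15 largest falls was part of how they were chosen. Of all tested genes 49.1% did not overlap. Csf3, the gene of granulocyte colony-stimulating factor, went from 45.4, 68.3 and 38.2 to 19425, 16936 and 17639. This was a rise of 8.52 ± 0.32 or at least 282-fold (adjusted p = 3.2e-13).

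LPS changed 4309 of the 11547 genes (37.3%). Of these, 1330 rose (11.5%) and 2979 fell (25.8%). At least 2-fold rises numbered 436 (3.78%) and at least 2-fold falls 603 (5.22%). The arrays of the 2 groups did not overlap for 5667 genes (49.1%), higher for 1850 (16%) and lower for 3817 (33.1%). Over every kept probe set 7480 passed (29.2%), and over every probe set with no filter 6713 (14.9%). Scaling moved the balance of rises and falls. The median of all genes was -0.11, and centring each array on its median moved it by 0.19 and gave 2582 higher and 1694 lower, against 1481 and 2572 after quantile normalization. The large changes leaned the other way, with 188 genes at least 4-fold higher and 90 at least 4-fold lower, and 68 rose at least 10-fold on the log2 scale. There were 102 genes under the array median on all 3 arrays without LPS and above it on all 3 with LPS, 75 of which passed, and 75 that went the opposite way, 51 of which passed. Of 4693 genes with a called probe set, 22 had probe sets called in both directions.

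**Figure D1:**
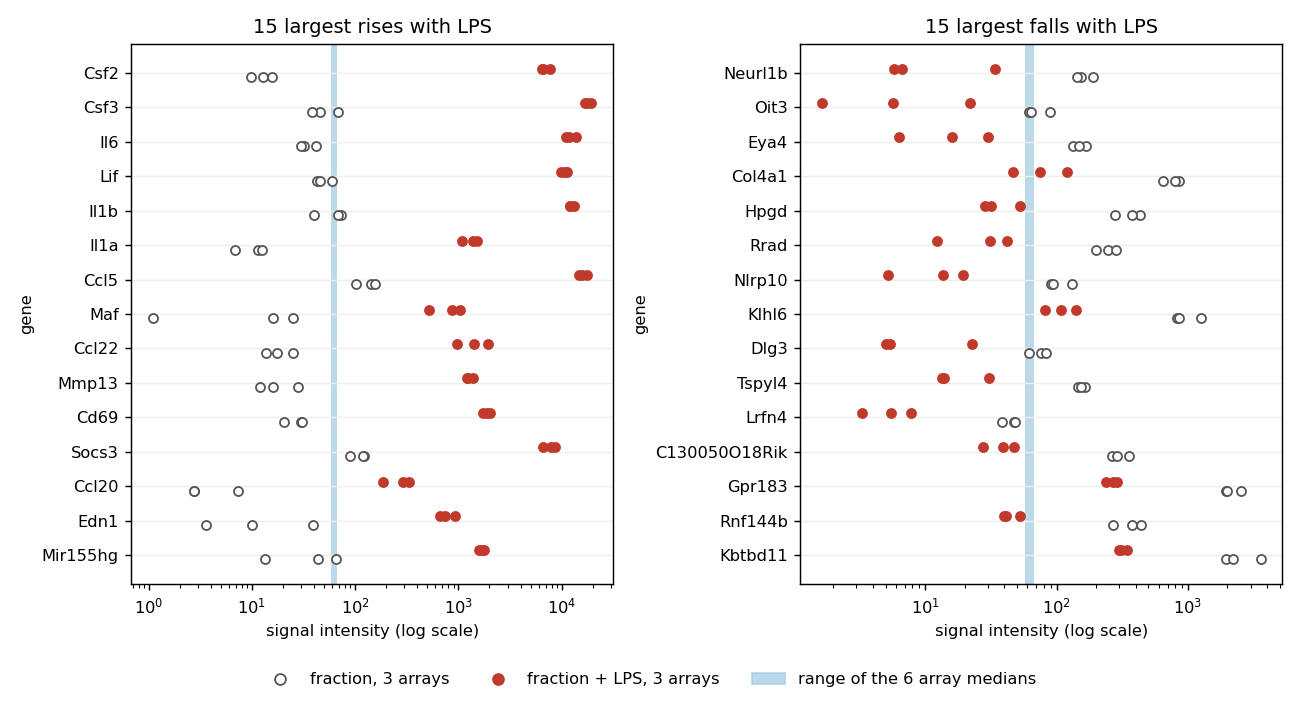
Signal intensity (log scale) of the 15 genes with the largest rise (left) and the 15 with the largest fall (right) in fraction-treated cells, open circles for the 3 fraction arrays and filled circles for the 3 fraction plus LPS arrays. The blue band is the range of the 6 array medians (58.0 to 66.8): most of the leading rises start under it, and 11 of the 15 leading falls end with all 3 LPS arrays under it.

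In the cytokine list 18 of the 21 tested members passed, 18 higher and 0 lower. This was 85.7% higher, against 11.5% of all tested genes, with a list median of 3.29 against -0.11 over all genes. The lists and their members were chosen with earlier results of these data known. All list counts below, also those against vehicle cells, are therefore descriptions that this choice partly set. Of the 603 listed genes 505 were tested. A probe set had to reach the array median on at least 3 arrays. Among genes low without LPS, this filter favoured those that LPS raised. Il6, the gene of interleukin 6, read 32.1, 42 and 30 without LPS and 11859, 13867 and 11016 with it, at least 202-fold higher (8.47 ± 0.56, adjusted p = 1e-09). Il1b, which encodes interleukin 1 beta, went from 72.8, 39.7 and 68.7 to 12138, 13238 and 12089 (7.74 ± 0.21, adjusted p = 1.6e-15), and its 3 LPS arrays lay within a narrow band. The leukaemia inhibitory factor gene Lif went from 42.9, 59.8 and 45.9 to 11255, 10729 and 9897 (7.76 ± 0.22, adjusted p = 2.6e-15). Tnf, the tumour necrosis factor gene, already had signals of 3770, 4691 and 3970 without LPS and read 27615, 23170 and 26182 with it, a 6.2-fold rise (2.63 ± 0.13, adjusted p = 2.3e-11). The interferon beta gene Ifnb1 was under the array median without LPS, at 10.1, 43.2 and 60.8, and read 259, 397 and 321 with LPS (at least 5.31-fold, 3.43 ± 0.41, adjusted p = 1.9e-06). The anti-inflammatory members rose too: Il10 went from 40.9, 47.1 and 78.8 to 419, 786 and 465 (3.33 ± 0.57) and the interleukin 1 receptor antagonist gene Il1rn from 871, 1543 and 940 to 10593, 11751 and 11091 (3.36 ± 0.37). Both subunit genes of interleukin 23, Il23a (3.29 ± 0.37) and Il12b (2.99 ± 0.78), passed, the second from 18.5, 6.78 and 19.6 to 103, 129 and 93.7 and so not far above the array median. The members that did not pass were Csf1 at 0.65 ± 0.26 (adjusted p = 0.054), Il33 at 1.63 ± 0.98 and Clcf1 at 0.10 ± 0.55, the last 2 under the array median in both groups.

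Among chemokine genes 14 of 19 rose (73.7%, against 11.5% of all tested genes) and 0 fell (median 2.82). Ccl5, a T cell and monocyte attractant, went from 144, 101 and 155 to 14687, 17536 and 15904, a 122-fold rise (6.93 ± 0.18, adjusted p = 1.6e-15). Ccl2, the main monocyte attractant, went from 220, 250 and 101 to 9200, 8498 and 3922 (38.1-fold, 5.25 ± 0.43), with replicate 3 the lowest in both groups. Ccl20, the ligand of CCR6, was near the floor without LPS at 7.37, 2.75 and 2.74 and reached 185, 293 and 329 with it (at least 4.33-fold, 6.10 ± 0.99, adjusted p = 7e-05). The constitutively bright Ccl3 rose only 2.31-fold, from 12177, 15595 and 16557 to 35594, 30330 and 35847, which is at the top of the arrays' range. The highest signal on these arrays was 39450, and whether the range limits the differences of such bright genes was not tested. Ccl6 (0.76 ± 0.44), Ccl17 (2.51 ± 1.09), Cxcl1 (0.22 ± 0.37), Cxcl14 (0.05 ± 0.28) and Cx3cl1 (0.12 ± 0.34) did not pass.

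Promoters of tested genes were read from RefSeq (GRCm38.p6) as the 250 bases before the start, and searched on both strands for the kappa B consensus. Of the tested genes 9357 had a promoter in the table, and 10.8% of those held at least 1 match, against 17.7% of the genes that rose at least 2-fold (57 of 322) and 11.7% of those that fell at least 2-fold. In the lists, 5 of 14 cytokine and 6 of 13 chemokine promoters held a match. A match is a description of the letters and not a shown binding site. Of the 3 promoters below, those of Il6 and Lif are shown because these genes were among the largest rises. Cxcl2 is shown as the 1 chemokine list gene whose response passed the test of the difference as lower than in vehicle cells. Capitals mark the kappa B matches, 5′ to 3′ on the gene's strand.
Il6 (chr5:30012864-30013113, plus strand, match at -44 to -35): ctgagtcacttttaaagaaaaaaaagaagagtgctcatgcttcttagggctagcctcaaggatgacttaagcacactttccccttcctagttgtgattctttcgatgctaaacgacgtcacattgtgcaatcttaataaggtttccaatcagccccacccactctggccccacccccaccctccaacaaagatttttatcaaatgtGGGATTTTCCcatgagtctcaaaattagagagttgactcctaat
Lif (chr11:4257318-4257567, plus strand, match at -178 to -169): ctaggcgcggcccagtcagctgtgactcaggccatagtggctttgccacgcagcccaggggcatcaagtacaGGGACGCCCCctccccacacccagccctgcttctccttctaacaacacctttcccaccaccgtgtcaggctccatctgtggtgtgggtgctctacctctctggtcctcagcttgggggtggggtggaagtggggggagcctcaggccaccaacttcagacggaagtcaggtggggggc
Cxcl2 (chr5:90903649-90903898, plus strand, overlapping matches at -97 to -88 and -96 to -87): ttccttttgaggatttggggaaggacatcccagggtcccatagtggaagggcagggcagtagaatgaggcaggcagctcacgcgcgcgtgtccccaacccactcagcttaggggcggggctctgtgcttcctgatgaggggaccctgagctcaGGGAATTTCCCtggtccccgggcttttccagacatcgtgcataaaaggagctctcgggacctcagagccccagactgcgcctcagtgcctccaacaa
Positions count back from the annotated start, with -1 the last base shown. The AP-1 motif TGACTCA on either strand was in 4.1% of all these promoters and in 11.2% of those of the genes that rose at least 2-fold.

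In the list of LPS and pattern receptors 14 of 23 genes rose and 1 fell (median 0.55). These shares were 60.9% and 4.35%, against 11.5% and 25.8% of all tested genes. The one that fell was Tlr4 itself, the LPS receptor gene, from 1595, 1540 and 1736 to 1023, 757 and 915 (-0.86 ± 0.11, adjusted p = 4.2e-06), and 2 members were lower when replicate 2 of fraction plus LPS was left out. The co-receptor gene Cd14 rose 1.56-fold from signals of 16395, 19609 and 18819 (0.64 ± 0.10). Nlrp3, the inflammasome sensor gene, went from 922, 979 and 865 to 2982, 3580 and 3002 (3.45-fold, 1.79 ± 0.15). Clec4e, the gene of the glycolipid receptor Mincle, went from 6394, 6091 and 4408 to 17981, 18173 and 20077 (3.37-fold, 1.75 ± 0.15). The NF-kB list had 13 of 21 higher (61.9%) and 3 lower (14.3%), with a median of 1.10. The kinase gene Ikbke (10.8-fold, 3.43 ± 0.17, adjusted p = 1.1e-11) and the adaptor gene Traf1 (9.87-fold, 3.30 ± 0.16) led it, followed by Tnfaip3, the gene of the ubiquitin-editing inhibitor A20, from 328, 476 and 590 to 2023, 3014 and 2291 (2.41 ± 0.20). The subunit genes Rel (1.65 ± 0.11) and Nfkb2 (2.05 ± 0.12) rose, whereas Rela was at -0.17 ± 0.12 (adjusted p = 0.26). The 3 that fell were Map3k14, the kinase gene of the alternative pathway (-0.74 ± 0.17), Ikbkg (-0.39 ± 0.12) and Cyld (-0.35 ± 0.10). After median centring Ikbkg and Cyld did not pass, and Ikbkg did not pass without fraction replicate 2 or fraction plus LPS replicate 1.

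Of the feedback inhibitors 12 of 26 rose and 1 fell (median 0.67), and 2 fell without fraction plus LPS replicate 1. The main shares were 46.2% and 3.85%, against 11.5% and 25.8% of all tested genes. Socs3, an inhibitor of cytokine receptor signalling, had the largest rise, from 89.7, 123 and 120 to 7825, 8704 and 6628 (69.8-fold, 6.12 ± 0.24, adjusted p = 5.1e-13), on a probe set of a kind open to cross-hybridization. Dusp5 (11.1-fold, 3.47 ± 0.20) and Dusp2 (9.34-fold, 3.22 ± 0.18), which encode nuclear phosphatases of ERK, the phosphodiesterase gene Pde4b (10.5-fold, 3.40 ± 0.16) and Zc3h12a, the gene of the RNase Regnase-1 (6.85-fold, 2.78 ± 0.20), also rose. The stress phosphatase gene Dusp1 did not pass, with 1250, 1584 and 1034 without and 1072, 1261 and 1001 with LPS (-0.20 ± 0.38, adjusted p = 0.72).

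Immediate early and Kruppel-like factors moved both ways, with 10 of 23 higher and 5 lower (median 0.38). The lower share (21.7%) was near the 25.8% of all tested genes, and the higher one was 43.5% against 11.5%. Myc went from 397, 403 and 202 to 2376, 2577 and 2585 (7.88-fold, 2.98 ± 0.35) and Egr1 from 1081, 1348 and 839 to 3203, 4942 and 3429 (1.82 ± 0.27). Klf4, a transcription factor gene of monocyte differentiation, fell from 2040, 1572 and 1351 to 312, 260 and 261 (5.9-fold lower, -2.56 ± 0.20, adjusted p = 7.7e-09). Klf10 fell from 653, 669 and 529 to 120, 118 and 103 (5.41-fold lower, -2.44 ± 0.14). Klf2 fell as well (-1.30 ± 0.26), while Fos (-0.51 ± 0.17) and Bhlhe40 (-0.76 ± 0.26) passed as lower but not after median centring. Fos did not pass without fraction replicate 1 or 2 or fraction plus LPS replicate 3, nor Bhlhe40 without fraction replicate 3 or any array of fraction plus LPS. In this list the counts with 1 array left out stayed at 10 to 11 higher and at 3 to 4 lower, with 3 lower without replicate 3 of fraction plus LPS.

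Prostaglandin and nitric oxide genes also split, 7 of 19 higher and 6 lower (median -0.19). The lower share (31.6%) was near the 25.8% of all tested genes, and the higher one was 36.8% against 11.5%. Ptgs2, the inducible cyclooxygenase gene, went from 7024, 5752 and 4578 to 27906, 25256 and 27592 (4.72-fold, 2.24 ± 0.17, adjusted p = 9e-09). The prostaglandin E synthase gene Ptges went from 102, 126 and 48.6 to 194, 253 and 293 (1.51 ± 0.31). Hpgd, which encodes the enzyme that inactivates prostaglandins, fell from 279, 431 and 376 to 31.9, 28.5 and 52.3, at least 5.85-fold (-3.30 ± 0.42, adjusted p = 4e-06), on a probe set open to cross-hybridization. The 2 measured prostaglandin E2 receptor genes that couple to Gs went in opposite directions. Ptger2 rose 8.06-fold, from 342, 355 and 273 to 2507, 2693 and 2558 (3.01 ± 0.31, adjusted p = 3.1e-07), and Ptger4 fell 2.75-fold, from 510, 589 and 796 to 219, 253 and 207 (-1.46 ± 0.13, adjusted p = 7.7e-08). The leukotriene pathway genes Alox5 (-1.15 ± 0.25) and Alox5ap (-0.78 ± 0.10) fell. Nos2, the inducible nitric oxide synthase gene, rose 4.95-fold from 132, 98.4 and 53 to 412, 608 and 334 (2.31 ± 0.56, adjusted p = 0.0028).

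Of the 44 genes of the interferon response list 37 were tested. Of these, 36 rose (97.3%, against 11.5% of all tested genes) and 0 fell, with a median of 2.01. Ifit1, an inhibitor of translation of viral RNA, went from 150, 270 and 163 to 3524, 6431 and 3583 (23-fold, 4.53 ± 0.23, adjusted p = 2e-11). Rsad2, the gene of viperin, went from 492, 851 and 617 to 8584, 18911 and 11194 (19.2-fold, 4.26 ± 0.25). Cxcl10, an interferon-inducible member of the chemokine list, went from 534, 711 and 619 to 10075, 16662 and 11668 (20.3-fold, 4.34 ± 0.18, adjusted p = 1.4e-12). In each of these 3 genes replicate 2 was the highest array both without and with LPS. The guanylate-binding protein gene Gbp2 was under the array median without LPS, at 12.8, 29.4 and 1.2, and read 224, 649 and 259 with it (at least 5.54-fold, 5.45 ± 0.76). The RNA sensor genes Ifih1 (6.67-fold, 2.74 ± 0.13) and Dhx58 (3.57-fold, 1.83 ± 0.21) rose, and so did the transcription factor genes Irf7 (0.81 ± 0.24) and Irf9 (0.73 ± 0.11). Irf7 did not pass without fraction replicate 1 or fraction plus LPS replicate 2, and with 1 array left out 33 to 36 members passed.

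The interferon-stimulated response element core (GAAA, any 2 bases, GAAA, either strand) was in 3.22% of all tested genes' promoters, in 10.2% of those of genes that rose at least 2-fold, and in 12 of the 27 interferon list promoters in the table (44.4%). The 3 promoters below are shown because these genes had larger rises in fraction-treated than in vehicle cells. Capitals mark the response element core and, in Cxcl10, also the kappa B matches.
Cxcl10 (chr5:92348890-92349139, minus strand, element at -213 to -204, kappa B at -159 to -150, -104 to -95 and -103 to -94): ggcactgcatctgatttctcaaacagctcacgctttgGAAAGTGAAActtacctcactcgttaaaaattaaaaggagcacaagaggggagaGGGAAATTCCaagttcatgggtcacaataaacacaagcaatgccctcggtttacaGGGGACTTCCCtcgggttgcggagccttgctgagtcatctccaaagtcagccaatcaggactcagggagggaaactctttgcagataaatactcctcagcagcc
Ifit1 (chr19:34640639-34640888, plus strand, elements at -104 to -95 and -85 to -76): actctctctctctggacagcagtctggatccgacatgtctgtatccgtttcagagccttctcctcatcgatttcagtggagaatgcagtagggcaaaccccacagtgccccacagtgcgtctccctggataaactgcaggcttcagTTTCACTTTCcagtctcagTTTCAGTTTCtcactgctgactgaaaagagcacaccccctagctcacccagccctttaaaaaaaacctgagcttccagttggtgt
Rsad2 (chr12:26456453-26456702, minus strand, element at -120 to -111): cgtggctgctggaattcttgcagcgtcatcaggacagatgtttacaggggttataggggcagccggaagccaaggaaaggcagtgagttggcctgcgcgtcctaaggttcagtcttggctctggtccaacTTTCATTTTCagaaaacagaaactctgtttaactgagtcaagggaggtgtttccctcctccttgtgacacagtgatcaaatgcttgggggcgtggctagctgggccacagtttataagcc
The 2 kappa B matches of Cxcl10 nearest the start overlap each other.

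Antigen presentation and costimulation genes rose in 13 of 20 cases (65%, against 11.5% of all tested genes) with 0 lower (median 0.35). The costimulatory gene Cd40 went from 784, 1082 and 859 to 5112, 7633 and 6289 (6.96-fold, 2.80 ± 0.17, adjusted p = 4.6e-10). The adhesion gene Icam1 went from 1332, 1995 and 1905 to 5935, 7615 and 6832 (3.94-fold, 1.98 ± 0.13), and the peptide transporter gene Tap1 from 422, 617 and 523 to 1098, 1840 and 1124 (1.35 ± 0.22). The bright class I genes H2-K1 (0.35 ± 0.09) and H2-D1 (0.32 ± 0.08) passed with small differences that did not pass after quantile normalization. In the JAK-STAT list 6 of 23 were higher and 9 lower (median -0.34), or 26.1% and 39.1% against 11.5% and 25.8% of all tested genes. The interleukin 10 receptor gene Il10ra rose from 79.2, 98.3 and 169 to 484, 615 and 524 (4.91-fold, 2.30 ± 0.26). The interleukin 6 receptor genes Il6ra, from 247, 309 and 258 to 87.2, 69.4 and 37.9 (-2.14 ± 0.24), and Il6st (-1.08 ± 0.15) fell. Stat2, a partner of IRF9, rose (1.59 ± 0.25). The direction of this list turned with the scaling, to 8 higher and 6 lower after median centring.

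Of the cell cycle and replication genes 39 of 44 were lower (88.6%, against 25.8% of all tested genes) and 0 higher. The list median was -0.74, against -0.11 over all genes. After median centring 31 were lower and 2 higher, and without fraction plus LPS replicate 1 one member was higher. Tk1, the thymidine kinase gene of S phase, went from 2920, 2860 and 3152 to 572, 477 and 591 (5.47-fold lower, -2.45 ± 0.17, adjusted p = 1.2e-09). Ung, a uracil DNA glycosylase gene, went from 210, 175 and 228 to 41.2, 74.3 and 44.7, at least 3.08-fold lower (-1.98 ± 0.22). The transcription factor gene E2f2 went from 194, 233 and 255 to 103, 56.2 and 51.1 (-1.76 ± 0.23). Mitotic members fell too, with Plk1 from 2497, 2254 and 1877 to 911, 800 and 808 (2.62-fold lower, -1.39 ± 0.12) and Mki67, the Ki-67 gene, from 6689, 5208 and 6372 to 3852, 1994 and 3129 (-1.07 ± 0.21). Among the licensing and helicase genes Mcm2 (-0.87 ± 0.11), Mcm6 (2-fold lower) and Cdc6 (-1.11 ± 0.17) fell, whereas Mcm10 was at 0.30 ± 0.12 (adjusted p = 0.059). The promoter of Cdc6 is shown because, of the list's members that fell in both fraction-treated and vehicle cells, it had the largest difference between the 2 responses. The E2F core TTCCCGC, in capitals (here on the opposite strand), was in 8.05% of all promoters and in 7 of 36 of this list (19.4%).
Cdc6 (chr11:98907901-98908150, plus strand, match at -138 to -132): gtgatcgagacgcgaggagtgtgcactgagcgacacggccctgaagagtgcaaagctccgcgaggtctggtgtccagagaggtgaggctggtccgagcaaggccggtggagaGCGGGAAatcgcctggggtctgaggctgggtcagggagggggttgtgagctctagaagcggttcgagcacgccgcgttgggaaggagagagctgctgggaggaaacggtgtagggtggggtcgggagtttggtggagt

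Of the stress genes, 4 of 28 were higher (14.3%) and 6 lower (21.4%) in fraction-treated cells given LPS, near the 11.5% and 25.8% of all tested genes. The median (0.04) and the counts differed in sign, and the direction turned to 12 and 5 after median centring. The higher count was 1 without fraction plus LPS replicate 1, and 2 without fraction plus LPS replicate 3 or fraction replicate 1. Ddit3, the CHOP gene of the integrated stress response, was bright without LPS, at 6328, 6951 and 5618, and fell to 3076, 2875 and 3088 (2.08-fold lower, -1.06 ± 0.23, adjusted p = 0.0011). Trib3, a pseudokinase gene of the same pathway on a probe set open to cross-hybridization, fell from 5240, 5382 and 4799 to 2631, 2816 and 2830 (-0.90 ± 0.16). The endoplasmic reticulum stress sensor gene Ern1 fell from 1132, 1273 and 1068 to 607, 474 and 588 (-1.06 ± 0.14). These 3 did not overlap between groups, which also held for 15 of the 28 stress genes and for 49.1% of all tested genes. The falls of Ddit3 and Trib3 did not pass against a minimum change of 1.5-fold. NRF2 targets had 6 of 23 higher and 5 lower (median -0.07), with 3 lower without fraction replicate 2 or fraction plus LPS replicate 1 and 1 lower after median centring. The lower share (21.7%) was near that of all tested genes and the higher one was 26.1%. Hmox1, the heme oxygenase gene, did not pass, at -0.09 ± 0.14 (95% interval -0.39 to 0.21, adjusted p = 0.66), with signals of 2718, 3565 and 2729 without and 2585, 3190 and 2657 with LPS. The cystine transporter gene Slc7a11 rose from 1697, 1722 and 1472 to 3414, 3131 and 3135 (0.99 ± 0.11), the superoxide dismutase gene Sod2 rose 2.58-fold (1.37 ± 0.08), and the glutathione synthesis gene Gclc fell 2.14-fold (-1.10 ± 0.16).

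Cholesterol synthesis genes had 9 of 21 lower and 2 higher (median -0.27), but 4 lower and 4 higher after median centring, 4 lower without the 6 arrays numbered 2 or those numbered 3, and 6 to 8 lower with 1 array left out. The higher count was 1 without replicate 2 or 3 of the fraction or replicate 1 or 3 of fraction plus LPS. The higher share of this list (9.52%) was near the 11.5% of all tested genes, and the lower one was 42.9% against 25.8%. Dhcr7, an enzyme of the last steps, fell 1.87-fold (-0.90 ± 0.14). Insig1, which encodes a retention factor of the sterol sensor, rose from 228, 190 and 147 to 479, 620 and 546 (2.94-fold, 1.56 ± 0.17, adjusted p = 4.8e-07). Lipid handling genes had 5 of 19 higher and 5 lower (median 0.11), with 3 higher without fraction replicate 2 or fraction plus LPS replicate 1 and 3 lower without fraction plus LPS replicate 3. Either count was 26.3% of the list, against 11.5% higher and 25.8% lower over all tested genes. Fabp4, a fatty acid binding protein gene, rose from 243, 373 and 249 to 4819, 4927 and 4611 (16.9-fold, 4.08 ± 0.23). The desaturase gene Scd2 fell from 3907, 5764 and 9590 to 941, 1342 and 1195 (5.23-fold lower, -2.39 ± 0.22), with fraction replicate 3 the highest. Of the lysosome genes 7 of 22 were lower and 2 higher (median -0.08), 5 and 7 after median centring, and 1 higher without fraction replicate 1 or 3 or any array of fraction plus LPS. These shares (31.8% lower, 9.09% higher) were near the 25.8% and 11.5% of all tested genes. The list included Lipa, the lysosomal acid lipase gene, at 7042, 7603 and 7949 without and 4323, 4103 and 3047 with LPS (-0.99 ± 0.11). Glycolysis and hypoxia genes had 3 of 20 higher and 3 lower (median -0.02). Either count was 15% of the list, against 11.5% higher and 25.8% lower over all tested genes. The counts ran from 1 to 5 lower with 1 array left out (5 without fraction replicate 1, 1 without fraction replicate 3, fraction plus LPS replicate 1 or fraction plus LPS replicate 3). The peptide hormone gene Adm rose from 26.3, 49 and 237 to 874, 760 and 687 (3.51 ± 0.48).

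Among apoptosis and p53 genes 12 of 24 rose and 8 fell (median 0.38), or 50% and 33.3% against 11.5% and 25.8% of all tested genes. Fas, the death receptor gene, went from 98.7, 155 and 134 to 1994, 1878 and 1437 (13.8-fold, 3.78 ± 0.19, adjusted p = 2.4e-11). Gadd45b went from 423, 611 and 566 to 3563, 4496 and 4048 (7.62-fold, 2.93 ± 0.13). Its relative Gadd45g fell from 280, 407 and 358 to 73.1, 101 and 42.3 (-2.35 ± 0.25). The BH3-only gene Pmaip1 fell from 2001, 2313 and 3240 to 675, 834 and 770 (-1.70 ± 0.16), and another, Bcl2l11, rose (1.52 ± 0.14). Matrix and protease genes had 9 of 14 higher (64.3%) and 1 lower (7.14%), with a median of 1.61. The collagenase gene Mmp13 rose from 12, 28.3 and 16.1 to 1204, 1230 and 1371 (at least 20.9-fold, 6.17 ± 0.93). The gelatinase gene Mmp9 went from 167, 116 and 145 to 1573, 989 and 1006 (8.22-fold, 3.04 ± 0.30), and the urokinase receptor gene Plaur rose from 1124, 1125 and 963 to 8440, 8008 and 8230 (7.7-fold, 2.94 ± 0.11, adjusted p = 3e-13). The one lower member was Plau, the gene of urokinase itself (-1.93 ± 0.46), on arrays reading 549, 783 and 526 without and 142, 265 and 108 with LPS.

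Iron and acute phase genes had 5 of 12 higher and 1 lower (median 0.49), or 41.7% and 8.33% against 11.5% and 25.8% of all tested genes. Lcn2, the gene of the iron-scavenging lipocalin 2, rose from 631, 666 and 316 to 9056, 7237 and 6624 (14.8-fold, 3.89 ± 0.45). Saa3, an acute phase gene, rose from 265, 235 and 133 to 5768, 5968 and 5972 (29.1-fold, 4.87 ± 0.40). The iron exporter gene Slc40a1 fell from 602, 1566 and 1185 to 109, 357 and 332 (4.42-fold lower, -2.14 ± 0.46). Macrophage identity genes had 6 of 20 higher and 4 lower (median 0.05), 3 higher without fraction replicate 1 and 10 after median centring. The lower share (20%) was near the 25.8% of all tested genes, and the higher one was 30% against 11.5%. The scavenger receptor gene Msr1 rose (2.44-fold, 1.29 ± 0.20), and the signal regulatory protein gene Sirpa (-1.51 ± 0.13), the lipid receptor gene Trem2 (-1.51 ± 0.22), the transcription factor gene Cebpa (-1.23 ± 0.12) and the Fc receptor gene Fcgr3 fell. Fcgr3 was under the array median on the arrays with LPS, so its fall is a bound of at least 1.93-fold (-1.91 ± 0.33 as measured). Ribosome biogenesis genes had 5 of 18 higher and 0 lower (median 0.12), or 27.8% and 0% against 11.5% and 25.8% of all tested genes. After median centring 13 were higher. Nop56 was at 0.41 ± 0.07. Of the 8 tested markers of other cell types 0 passed by limma, and 1 was higher without fraction replicate 1.

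**Figure D2:**
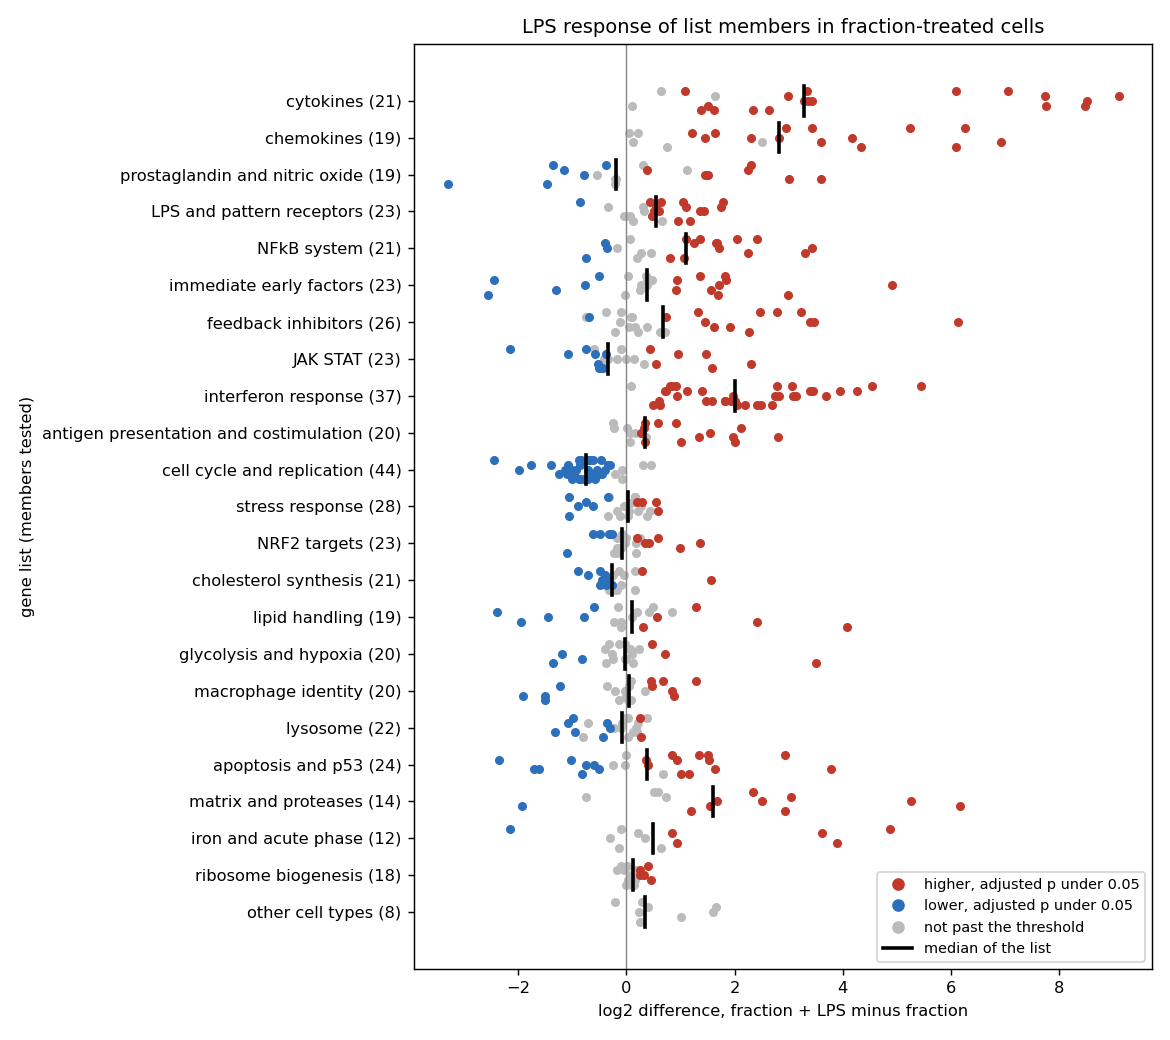
Log2 difference, fraction plus LPS minus fraction, of each tested member of the 23 gene lists (points, 1 gene each), red for higher and blue for lower with an adjusted p under 0.05, and grey for the rest; black bars are list medians. The cytokine, chemokine and interferon lists lie to the right (medians 3.29, 2.82 and 2.01) and the cell cycle list to the left (-0.74), while the stress, lysosome and JAK-STAT lists change their leading direction after median centring.

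Outside the lists, large falls were measured in genes that stayed above or near the array median. Klhl6, a ubiquitin ligase adaptor gene, fell from 831, 849 and 1256 to 81, 109 and 140 (8.95-fold lower, -3.16 ± 0.20, adjusted p = 5.5e-10). Gpr183, the oxysterol receptor gene, fell from 1948, 1968 and 2522 to 237, 269 and 291 (8.05-fold lower, -3.01 ± 0.19). Kbtbd11 went from 1963, 2217 and 3569 to 298, 312 and 341 (7.88-fold lower, -2.98 ± 0.19). Col4a1, which encodes a chain of type IV collagen, went from 856, 797 and 641 to 46.4, 74.3 and 121 (10.2-fold lower, -3.34 ± 0.37). Neurl1b had the largest log2 fall of the 15, -3.87 ± 0.50, but since its LPS arrays read 5.82, 34.1 and 6.71 the fold is given as at least 2.65. Among the rises outside the lists were Maf, a transcription factor gene, from 16.1, 24.9 and 1.11 to 863, 1037 and 519 (at least 12.8-fold), the activation antigen gene Cd69 (at least 31.2-fold, 6.16 ± 0.37), and Mir155hg, the host transcript of an inflammatory microRNA, from 43.4, 13.3 and 64.8 to 1768, 1576 and 1651 (at least 27.5-fold).

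The response was next set against that of vehicle cells, which used other arrays (vehicle plus LPS against vehicle). There 3680 genes passed (31.9%), 1161 higher (10.1%) and 2519 lower (21.8%). Over all tested genes the log2 differences of the 2 responses had a Pearson correlation of 0.76 and a Spearman correlation of 0.68, as a description across genes, which are not independent replicates. Both passed for 2695 genes, of which 2675 went the same way (62.1% of the calls in fraction-treated and 72.7% of those in vehicle cells) and 20 went opposite ways, 7 higher and 13 lower in fraction-treated cells. The difference between the responses passed for 247 genes (2.14%), 103 with a higher log2 difference in fraction-treated cells (0.892%) and 144 with a lower one (1.25%). This count was sensitive to single arrays. Leaving out vehicle replicate 3 gave 54 higher and 71 lower, vehicle plus LPS replicate 2 gave 60 and 63, and fraction replicate 2 gave 65 and 59, while the lower count was 87 without fraction plus LPS replicate 3 and 91 without fraction replicate 3. Of the 50 genes named by rule whose difference passed, Cxcl10, Hspa1b, Klf4 and Nupr1 passed in all 27 alternatives run for each. Other genes named below were not part of this count.

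**Figure D3:**
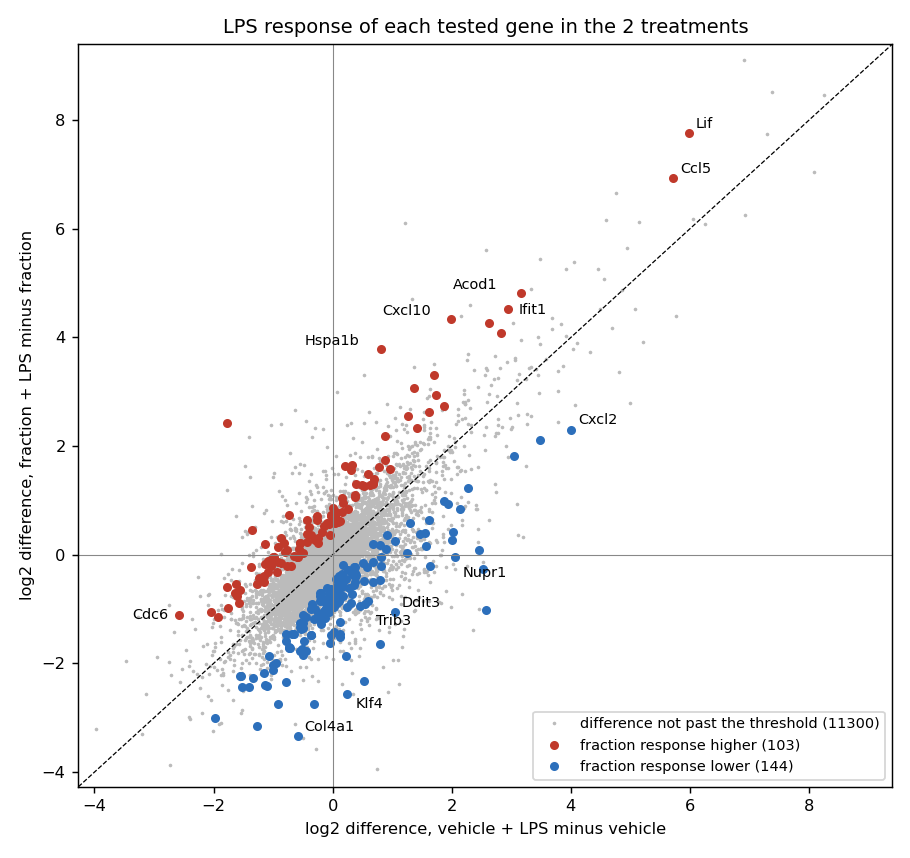
Log2 difference with LPS in fraction-treated cells (vertical) against that in vehicle cells (horizontal) for the 11547 tested genes, red where the fraction response was higher (103) and blue where it was lower (144) by the test of the difference, with the dashed line marking equal responses. Most genes lie along the line (Pearson 0.76), Hspa1b and Cxcl10 lie above it, and Klf4, Nupr1 and Ddit3 lie below it.

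Of the 37 interferon list members, 34 had a higher log2 difference in fraction-treated than in vehicle cells (91.9%, median difference 0.60), against 45.8% of all tested genes (median -0.03), and 6 (16.2%) passed the test of the difference in that direction, against 0.892% of all genes, and 0 in the other. Ifit1 read 965, 1220 and 1134 in vehicle and 150, 270 and 163 in fraction-treated cells without LPS, and 8004, 10536 and 7186 and 3524, 6431 and 3583 with it, so the rises were 2.94 ± 0.23 and 4.53 ± 0.23 (difference 1.58 ± 0.32, adjusted p = 0.014). The fraction arrays were the lower ones at both LPS states, with no overlap. Rsad2 read 3219, 3048 and 2406 in vehicle cells against 492, 851 and 617, and 17631, 20546 and 15398 against 8584, 18911 and 11194 with LPS, where the groups overlapped (difference 1.63 ± 0.35, adjusted p = 0.019). The other 4 were Irgm1 (1.32 ± 0.27, adjusted p = 0.014), Mx2 (1.69 ± 0.36), Ifih1 (0.86 ± 0.18) and Eif2ak2 (0.71 ± 0.17). Mx2 and Ifih1 did not pass without vehicle replicate 3, and Mx2 and Irgm1 did not pass when only the 4 compared groups were fitted. Eif2ak2 did not pass without replicate 2 or 3 of vehicle, of vehicle plus LPS or of fraction plus LPS, or without replicate 1 or 3 of the fraction. Cxcl10 had the clearest difference among chemokines: 3121, 5219 and 4816 in vehicle and 534, 711 and 619 in fraction-treated cells without LPS, and 14714, 18837 and 17894 and 10075, 16662 and 11668 with LPS (difference 2.35 ± 0.26, adjusted p = 6e-05). Here too the fraction group was the lower one without LPS, with no overlap.

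Hspa1b, an inducible heat shock protein gene whose copy Hspa1a is near-identical, had the smallest p of all differences among the named genes. It read 890, 967 and 1117 in vehicle and 66.2, 79.1 and 54.6 in fraction-treated cells, and with LPS 1925, 1881 and 1422 and 900, 1166 and 724. The rise was 0.81 ± 0.17 in vehicle and 3.79 ± 0.17 in fraction-treated cells (difference 2.99 ± 0.24, adjusted p = 1.5e-06), and the fraction groups were the lower ones at both LPS states. Acod1, the gene of the enzyme that makes itaconate, read 1471, 2598 and 2991 and 584, 1013 and 835 without LPS and 20885, 20814 and 19030 and 23452, 20362 and 23128 with it (difference 1.65 ± 0.27, adjusted p = 0.0026). Its signals with LPS overlapped between the treatments, and those without LPS were lower in fraction-treated cells. Among cytokine genes the difference passed for Lif and Tnf. Lif read 3157, 5321 and 5640 in vehicle plus LPS and 11255, 10729 and 9897 in fraction plus LPS, and here the fraction group was the higher one with LPS (difference 1.78 ± 0.31, adjusted p = 0.004). Tnf read 5674, 7179 and 6611 and 3770, 4691 and 3970 without LPS and 20311, 20097 and 19076 and 27615, 23170 and 26182 with it (difference 1.01 ± 0.19, adjusted p = 0.0071). The differences of Acod1 and Tnf did not pass without all arrays numbered 2 or without all those numbered 3. That of Lif did not pass without all arrays numbered 3. For Ccl5 the difference was 1.21 ± 0.26 (adjusted p = 0.019) and did not pass without vehicle replicate 3 or fraction replicate 2, and for Plaur it was 1.21 ± 0.15 (adjusted p = 0.00023). The differences of Csf2 (2.18 ± 0.72, adjusted p = 0.14), Ccl20 (4.89 ± 1.41, adjusted p = 0.085) and Il6 (0.22 ± 0.79, adjusted p = 0.95) did not pass.

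**Figure D4:**
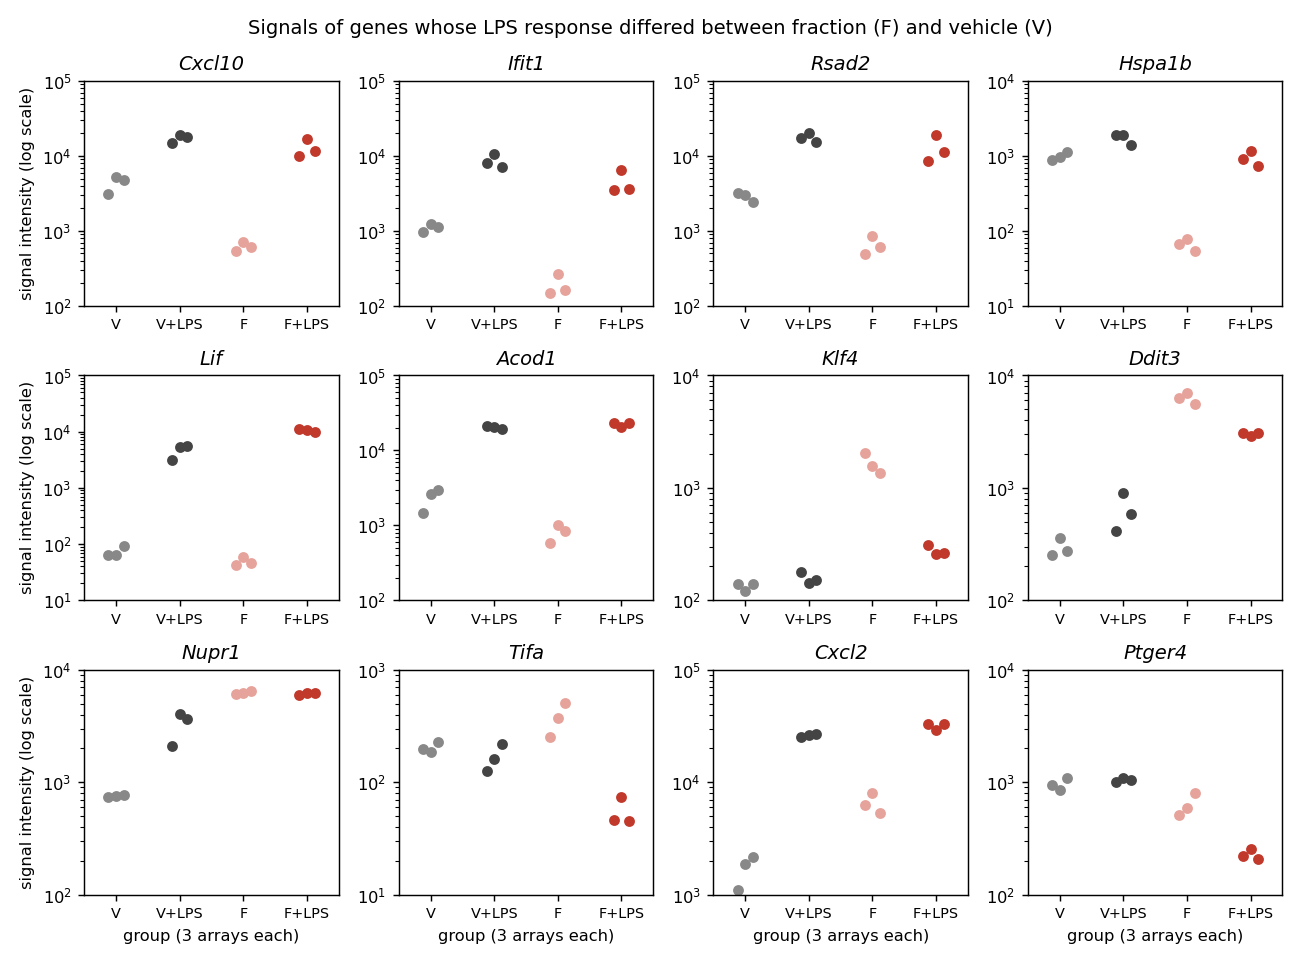
Signal intensity (log scale, axes differ between panels) on each of the 3 arrays of vehicle (V), vehicle plus LPS (V+LPS), fraction (F) and fraction plus LPS (F+LPS) for 12 genes whose LPS response differed between the treatments. Cxcl10, Ifit1, Rsad2, Hspa1b and Acod1 were lower in F than in V without LPS, Klf4, Ddit3, Nupr1 and Cxcl2 were higher there, and Lif was highest in F+LPS (9897 to 11255).

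Of the 44 cell cycle genes, 39 fell in fraction-treated and 44 in vehicle cells. A higher log2 difference in fraction-treated than in vehicle cells was measured for 29 (65.9%, against 45.8% of all tested genes). The test of the difference passed in that direction for 7 (15.9%, against 0.892% of all tested genes). Cdc6 read 1801, 2087 and 2110 in vehicle and 432, 395 and 346 in fraction-treated cells without LPS, and 471, 289 and 271 and 193, 205 and 149 with LPS, with log2 differences of -2.58 ± 0.17 and -1.11 ± 0.17 (difference between the responses 1.48 ± 0.24, adjusted p = 0.0024). The exonuclease gene Exo1 read 1199, 1246 and 1239 and 578, 563 and 598 without LPS and 470, 393 and 345 and 388, 389 and 422 with it (difference 1.08 ± 0.15, adjusted p = 0.00074). The others were Mcm10 (1.16 ± 0.17), Tyms (1.81 ± 0.36), Chaf1b (0.77 ± 0.15), Fen1 (0.77 ± 0.16) and Uhrf1 (0.79 ± 0.19), the last not passing without replicate 2 or 3 of vehicle or of vehicle plus LPS, or without replicate 1 or 2 of either fraction group. The calls of Cdc6, Exo1 and Chaf1b were lost without all arrays numbered 2 and without all those numbered 3. That of Tyms was lost without all arrays of any 1 number and against the 1.5-fold minimum. Tyms did not pass with LPS in fraction-treated cells (0.45, 95% interval -0.07 to 0.98). In Cdc6 and Exo1 the fraction arrays without LPS were already the lower ones, with no overlap. Apart from Tyms, these genes were singled out after their values were seen, because the difference passed.

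Stress genes went the other way. Passing or not, 21 of the 28 had a lower log2 difference in fraction-treated than in vehicle cells and 7 a higher one. The test of the difference passed for 7 in the lower direction (25%, against 1.25% of all tested genes) and for 0 in the higher one. Ddit3 read 255, 360 and 272 in vehicle and 6328, 6951 and 5618 in fraction-treated cells without LPS, and 410, 901 and 588 and 3076, 2875 and 3088 with it. It rose with LPS in vehicle cells (1.04 ± 0.23) and fell in fraction-treated cells (-1.06 ± 0.23), and the difference passed (-2.10 ± 0.32, adjusted p = 0.0016). Trib3 also had opposite changes, 0.55 ± 0.16 and -0.90 ± 0.16 (difference -1.44 ± 0.23, adjusted p = 0.0023), at signals of 187, 199 and 194 and 5240, 5382 and 4799 without LPS. Nupr1, a stress-induced nuclear protein gene, rose in vehicle cells from 738, 751 and 777 to 2100, 4033 and 3688 and read 6141, 6207 and 6544 and 5987, 6262 and 6171 in fraction-treated cells (-0.04 ± 0.16, 95% interval -0.38 to 0.31; difference -2.10 ± 0.23, adjusted p = 6.1e-05). Ppp1r15a, the gene of the GADD34 phosphatase subunit, was at 1.56 ± 0.18 and 0.17 ± 0.18 (difference -1.39 ± 0.26). The remaining 3 were Ern1 (-1.01 ± 0.19), Herpud1 (-0.71 ± 0.16) and Atf4 (-0.47 ± 0.12). Herpud1 did not pass without replicate 1 or 3 of vehicle, 2 or 3 of vehicle plus LPS, 2 of the fraction or 3 of fraction plus LPS, and Atf4 did not pass without vehicle replicate 1 or 3, vehicle plus LPS or fraction replicate 2 or 3, or any array of fraction plus LPS. In Ddit3, Trib3 and Nupr1 the fraction groups were the higher ones at both LPS states.

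Of the 23 immediate early and Kruppel-like factors, 18 had a lower log2 difference in fraction-treated than in vehicle cells and 5 a higher one. The test of the difference passed for 4 in the lower direction (17.4%, against 1.25% of all tested genes) and for 0 in the higher one. Klf4 read 139, 121 and 139 in vehicle and 180, 143 and 151 in vehicle plus LPS, against 2040, 1572 and 1351 and 312, 260 and 261 in the fraction groups (difference -2.80 ± 0.28, adjusted p = 2.5e-05), so that a gene which did not pass in vehicle cells (0.24 ± 0.20) fell in fraction-treated cells. Atf3 read 243, 326 and 301 and 792, 1409 and 1371 in vehicle and 2094, 2622 and 3244 and 2693, 4179 and 2837 in fraction-treated cells (difference -1.72 ± 0.34, adjusted p = 0.011). Klf10 (-0.91 ± 0.20) and Klf6 (-1.22 ± 0.27) were the other two. Klf10 did not pass without fraction replicate 2 or fraction plus LPS replicate 3, nor Klf6 without replicate 1 of vehicle or of fraction plus LPS, replicate 2 or 3 of vehicle plus LPS or replicate 2 of the fraction. The chemokine gene Cxcl2 rose in both treatments, from 1092, 1872 and 2168 to 25199, 26555 and 27119 in vehicle and from 6303, 7957 and 5305 to 32825, 29165 and 33053 in fraction-treated cells (difference -1.70 ± 0.28, adjusted p = 0.0028), with the fraction groups higher at both states. The costimulatory gene Cd83 had a difference of -1.38 ± 0.23 (adjusted p = 0.0029), with 398, 435 and 428 and 4391, 5230 and 4577 in vehicle and 1007, 1472 and 2015 and 5769, 6855 and 6084 in fraction-treated cells.

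Ptger4, the gene of a prostaglandin E2 receptor, fell with LPS in fraction-treated cells and did not pass in vehicle cells. It read 940, 853 and 1091 in vehicle and 1007, 1095 and 1048 in vehicle plus LPS (0.13 ± 0.13), against 510, 589 and 796 and 219, 253 and 207 in the fraction groups (difference -1.60 ± 0.19, adjusted p = 0.00015). Tifa, the gene of an adaptor that activates TRAF6, read 197, 186 and 228 and 125, 161 and 219 in vehicle and 252, 373 and 505 and 46.1, 74.6 and 44.9 in fraction-treated cells (difference -2.45 ± 0.35, adjusted p = 0.00074). Col4a1 read 76.3, 91 and 83.3 and 54.3, 49.1 and 63.5 in vehicle cells, near the array median, against 856, 797 and 641 and 46.4, 74.3 and 121 (difference -2.75 ± 0.53, adjusted p = 0.0082). Hdac9, a histone deacetylase gene, read 211, 251 and 306 and 114, 147 and 142 in vehicle and 1086, 886 and 909 and 128, 164 and 138 in fraction-treated cells (difference -1.82 ± 0.26, adjusted p = 0.00074). In Col4a1 and Hdac9 the fraction arrays without LPS stood above the other 3 groups, and with LPS they overlapped those of vehicle plus LPS. Ptger4 was singled out after its values were seen, as 1 of the 7 genes whose difference passed against a minimum of 1.5-fold, with Klf4, Cxcl10, Nupr1, Tifa, Hspa1b and Map2k3os.

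In mixture-treated cells, on other arrays again, 2844 genes passed with LPS (24.6%), 961 higher (8.32%) and 1883 lower (16.3%). The difference from the fraction response passed for 234 genes (2.03%), 77 higher (0.667%) and 157 lower (1.36%) in fraction-treated cells. With 1 array left out the higher count was 40 to 63 and the lower count 62 to 137. Both were over 1.5 times smaller without any one array of mixture plus LPS, without mixture replicate 3 and without fraction plus LPS replicate 3, as was the lower count without fraction replicate 2 (62), mixture replicate 1 (102) or fraction plus LPS replicate 1 (101). For 150 genes the fraction response differed in the same direction from that of vehicle and from that of mixture-treated cells, 2 comparisons that share the fraction arrays. Of the 20 genes with the largest such differences 18 also differed from vehicle, among them Hspa1b (2.87 ± 0.24 against the mixture, adjusted p = 2.9e-06), Hdac9 (-2.25 ± 0.26) and Micall2 (1.78 ± 0.29). The other 2 were Bcl6b, which rose from 50.3, 58.3 and 85.3 to 1520, 1087 and 1096 in fraction-treated cells (difference from the mixture 2.52 ± 0.51, adjusted p = 0.013), and Il1f6, from 59.6, 60.2 and 74.6 to 643, 567 and 644 (1.74 ± 0.45, adjusted p = 0.05 after rounding, just inside the threshold). The call of Il1f6 was lost without any 1 array of the fraction, fraction plus LPS or mixture plus LPS groups, and without mixture replicate 2 or 3.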

How the data were processed

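RNA from RAW264.7 cells was labelled with the one-cycle kit and read on 18 Affymetrix arrays. The authors deposited signal intensity values on a linear scale, made with MAS5 per the submitters' processing notes, and the 2% trimmed mean of each array was 500.0, so the arrays had been scaled before deposit. Of 45101 probe sets, 64 controls were left out and 34945 carried 1 gene symbol in the platform annotation. Signals were floored at 1 (0.823% of values lay below) and taken to log2. A model of 6 group means was fitted with limma 3.58.1 in R 4.3.3 (eBayes with trend, 12 residual degrees of freedom), with Benjamini-Hochberg adjustment over 11547 genes. The number of arrays limits the precision: the median standard error was 0.14 for a response and 0.20 for a difference of responses. A fold is given as "at least" where the lower group's geometric mean was under that of its array medians, with each array's signal in that group then raised to at least its own array median. The steps were tested on simulated data.

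The genes named by rule were the 15 largest rises and 15 largest falls with separate groups, up to 4 called members per list, Ptgs2, Tnf, Il1b, Il6, Nos2, Socs3 and Hmox1, the 10 largest differences in each direction against vehicle and against the mixture, and up to 10 genes called in opposite directions. Other list members named were chosen after their values were seen. The members and lists were chosen with earlier results of these data known. Alternatives were the filter, scaling, pseudocount, probe set choice, fit and left-out arrays.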

Additional observations from a re-analysis of the deposited data

Results flagged for a closer look

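The tested difference between the LPS responses of fraction-treated and vehicle cells passed for 50 of the 140 genes named by rule (limma, log2 differences, fraction minus vehicle). It passed for 2.14% of all tested genes. The rule took in some genes because this difference passed, so the share among the named genes was partly set by their choice. Among secreted factors and interferon-inducible genes it was positive for Lif (1.78), Ccl5 (1.21), Cxcl10 (2.35), Tnf (1.01), Ifit1 (1.58), Rsad2 (1.63) and Mx2 (1.69), and negative for Cxcl2 (-1.70). It was also positive for Hspa1b (2.99), Acod1 (1.65), Plaur (1.21), Tyms (1.81), Insig1 (1.26), Fabp4 (1.24), Micall2 (1.61), Zfp703 (1.31), Nxpe3 (1.47), Slc20a2 (1.07), Mrps21 (0.97) and Sema7a (4.20).

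Among transcription factor and stress genes it was negative for Klf4 (-2.80), Klf10 (-0.91), Atf3 (-1.72), Sox4 (-3.58), Arid5a (-2.38), Ddit3 (-2.10), Trib3 (-1.44), Nupr1 (-2.10), Ern1 (-1.01), Gadd45g (-1.57) and Pmaip1 (-0.96). Among surface proteins, receptors and transporters it was negative for Cd83 (-1.38), Cd200r1 (-2.44), Clec7a (-1.46), Gpr183 (-1.04), P2ry10b (-1.19), Slc7a11 (-0.89) and Slc46a3 (-2.84). The remaining negative differences were those of Col4a1 (-2.75), Klhl6 (-1.89), Hdac9 (-1.82), Tifa (-2.45), Lims2 (-2.79), Spsb2 (-1.33), Scd2 (-1.26), Gla (-0.83), Lipa (-0.63), Asph (-1.02), Snhg12 (-1.20) and Chd2 (-0.88). The calls of Sema7a, Sox4, Lims2, Cd200r1, Fabp4, Gadd45g, Gla, Gpr183, Lipa, Pmaip1, Scd2, Spsb2 and Chd2 were lost in 10 or more alternatives each, single left-out arrays among them. P2ry10b did not pass without fraction replicate 2 or 3 or vehicle plus LPS replicate 2, Asph without vehicle plus LPS replicate 2, and Zfp703 without vehicle replicate 3. Leaving out all arrays numbered 2, or all those numbered 3, ended further calls. Among those lost in both cases were Tnf, Acod1, Cd83, Trib3, Atf3, Rsad2, Tifa, Ern1, Insig1, Micall2 and Slc20a2.

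Against the mixture alone, the difference passed for Bcl6b (2.52) and Il1f6 (1.74) among the genes named by rule that did not pass against vehicle. The call of Il1f6 was lost in 21 alternatives and that of Bcl6b in 4, among them the minimum change of 1.5-fold and the fit with no eBayes trend for both.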

How the results depend on the processing

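The LPS responses of the 140 genes named by rule were recomputed in up to 21 alternatives each, which gave 2907 values over all these genes. Of these values, 2772 left direction and call as they were, 123 ended a call, 3 added one and 9 turned the sign. With arrays left out Arid5a (0.08) ranged from -0.05 without fraction replicate 3 to 0.24, reading -0.04 without fraction plus LPS replicate 2 and without replicate 3. Hmox1 (-0.09) ranged from -0.18 to 0.04, the latter without fraction replicate 2, and read 0.10 after median centring. Lims2 ranged from -0.62 to 0.00, the latter without replicate 3. Nupr1 read 0.16 after median centring. With signals under the array median set to it, Lrfn4 read 0.00 and Sox4 0.15.

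The 1330 higher genes became 331 against a minimum change of 1.5-fold, 2582 after median centring, 2596 over kept probe sets and 2344 over all probe sets, and the 2979 lower ones 427, 1694 and 4884 in the first 3 of these. At 2-fold, the higher count was 285 with the 75th percentile filter, 890 over kept and 979 over all probe sets, and the lower count 341, 1183 and 1237, with 398 for the 1.5-fold minimum and 374 after median centring. With arrays left out, the ranges were 871 to 1243 higher and 1926 to 2668 lower, and 397 to 453 and 531 to 622 at 2-fold.

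For the difference from vehicle, left-out arrays gave 8 to 145 higher and 6 to 199 lower genes, the lowest without all arrays numbered 2. No eBayes trend gave 60 and 65, the compared arrays alone 55 and 86, the 1.5-fold minimum 2 and 5, and signals under the array median set to it 49 lower. For the difference from the mixture the ranges were 6 to 63 and 8 to 137, with 47 and 74 for no trend, 2 and 3 for the 1.5-fold minimum, 42 higher with signals under the median set to it and 86 lower after median centring. The replicate block gave 198 higher and 269 lower against vehicle and 174 and 363 against the mixture, and 1547 higher and 3279 lower for the LPS response itself. The labels do not say what a replicate number marks. Same-numbered arrays of different groups had correlations of deviations from the group means of 0.02 to 0.17 (45 pairs), and those with different numbers -0.13 to 0.05 (90 pairs). An array correlated best with its own number in 81 of 90 cases, and in every other group for 10 of 18 arrays, a hint from the data and not the design. Since not every pair was over 0.1, the numbers were not treated as pairs. Any variation shared by number therefore stays in the spread of the main fit, and the replicate block counts above are those with it taken out. The cause of these changes was not tested, other than that fewer arrays, fewer genes or a stricter null enter by construction. Signals under the array median, and those near the top of the range, limit the folds that can be read.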
